A study of Canis lupus familiaris with 10 samples.

Results

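The 9 genes described here encode the pieces that start interferon signaling at the cell surface, namely the ligand IFNG, the receptor chains IFNAR1, IFNAR2, IFNGR1, IFNGR2 and IL10RB, and the Janus kinases JAK1, JAK2 and TYK2. They were picked by gene symbol as the set of ligand, receptor chains and kinases, and all 9 were found among the 23266 rows of the deposited table. All 9 passed the filter for testing, which kept the 12397 genes that reached 10 normalized read counts in 5 libraries or more. RNA came from formalin-fixed, paraffin-embedded tissue of canine cutaneous histiocytoma (CCH). This tumor arises from Langerhans cells of the skin, mostly in young dogs, and usually regresses on its own while lymphocytes enter it. Libraries were made with QuantSeq 3′, which reads a single stretch near the polyadenylated end of each transcript, so values of different genes can be compared without a correction for length.

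Early CCH (5 dogs, stage 1 of a histological scheme) was compared with late CCH (5 dogs, stage 3, labeled as enriched in lymphocytes). Each sample was surgical archive material from a different privately owned dog, and the dogs were of various breeds and both sexes. Ages ran from 0.5 to 5 years in the early group, where 1 age was not given, and from 1.5 to 9 years in the late group. Whole cross sections were lysed after surrounding tissue had been trimmed away, so every value is a mixture of tumor cells, immune cells and remaining skin. In such bulk samples, fewer cells of a type and less RNA per cell cannot be told apart.

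Interferon gamma, the type II interferon, is made mainly by activated T cells and natural killer cells. It binds IFNGR1, which carries JAK1, and then recruits IFNGR2, which carries JAK2. Type I interferons bind IFNAR1, the chain that carries TYK2, and IFNAR2, the chain that carries JAK1. IL10RB is the shared chain of the receptors for interleukin-10, interleukin-22 and the type III interferons and also works through TYK2. The receptors for type I and type II interferon are present on nearly every cell, whereas IFNG is made largely by lymphocytes.

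The reads recovered from the gene table summed to between 2973125 and 4439709 per library, rows that share reads included. Values are normalized read counts, that is, reads divided by 1 size factor per library, so 1 read is worth about 1 normalized read count. A gene with no reads may still have a level of up to 3 reads, or 2.36 to 3.22 normalized read counts depending on the library, and this bound covers counting error only. The summed level of 13 T-cell markers was 106 to 3191 in early and 4828 to 7906 in late CCH, and none of the 13 was at 0 in all early libraries. The summed level of 8 Langerhans and dendritic cell markers was 1397 to 3724 in early and 920 to 1424 in late CCH, and 4 of the 5 late libraries lay below all early ones. RNA quality, given as the share of fragments above a set length (DV200), was 64.5% to 71.2% in the early and 71.2% to 75.8% in the late samples. The study lists the stages in different extraction batches, so batch and stage cannot be told apart.

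Log2 fold changes (log2FC) are late minus early on the log2(normalized read count + 1) scale, which understates the change of low genes. A gene was called when the Benjamini-Yekutieli (BY) adjusted p of limma, over all genes tested, was at most 0.05 and its log2FC was at least 1 in size. Of the 9 members, 1 (IFNAR2) was called higher in late CCH, beside 1.06% of all genes tested (2.17% in either direction). With Benjamini-Hochberg (BH) adjustment it was again 1 member, beside 5.53%. None was called lower, beside 1.11%, and edgeR and DESeq2 on the recovered reads also called 1 member higher and 0 lower. Without the fold threshold, the BH-adjusted limma p was at most 0.05 for IFNAR1 (0.0207), IFNAR2 (0.00194) and IL10RB (0.017). Over all genes tested, 15.6% passed in this way, in either direction. For IFNAR1 and IL10RB, the BY-adjusted p was 0.043 and 0.0417 with DESeq2, and 0.228 and 0.209 with edgeR. At an unadjusted limma p of at most 0.05, 4 members were higher (15.6% of all genes) and 1 was lower (15.3%). In 3 members, IFNAR1, IFNAR2 and IL10RB, every late library exceeded every early one, beside 5.91% of all genes, and in 0 members every late library was below, beside 6.05%.

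**Figure D1:**
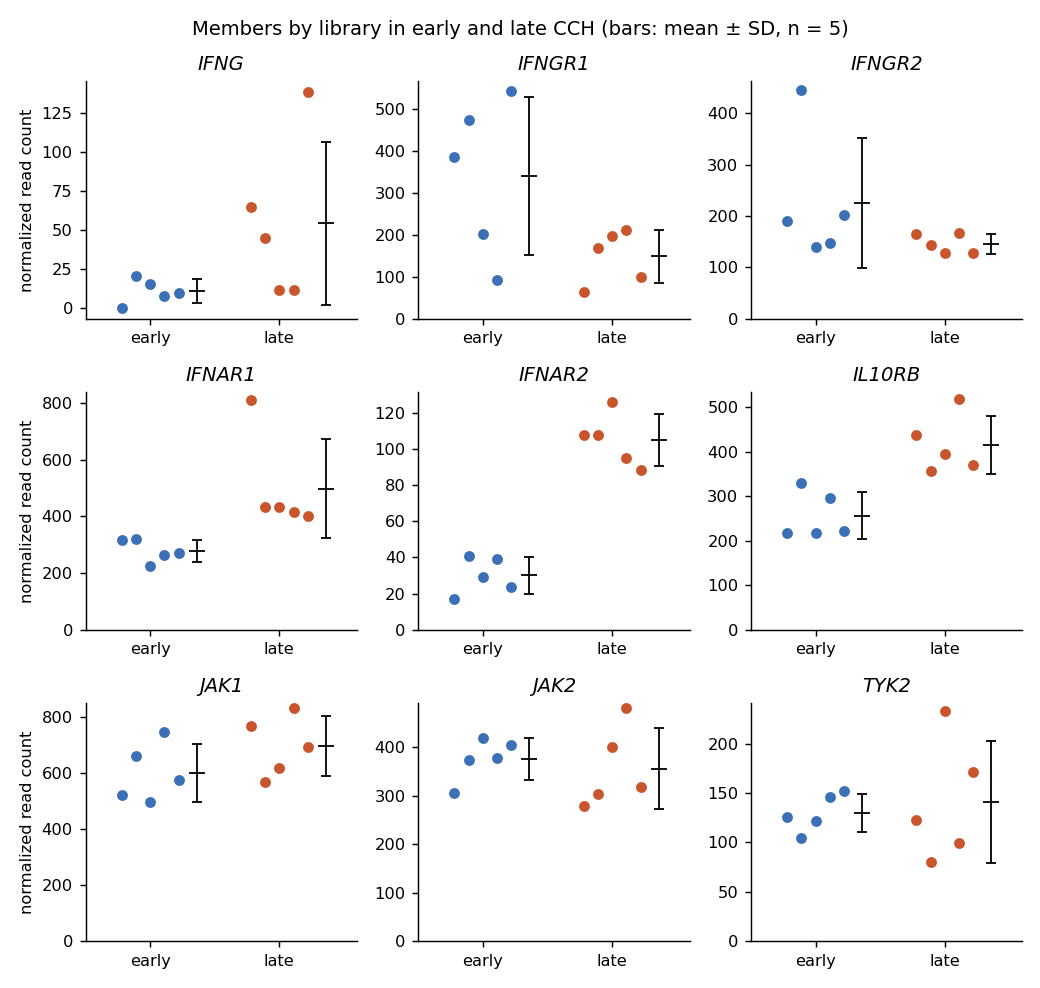
Normalized read counts of the 9 members in each library, early (5 points) and late (5 points), with the mean and SD of each stage. IFNAR1, IFNAR2 and IL10RB have late points that all lie above the early points, whereas the stages overlap in the other 6 members.

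IFNG, the ligand, was measured at 0, 20.5, 15.4, 7.88 and 9.66 normalized read counts in the 5 early libraries. The late libraries gave 64.6, 44.7, 11.6, 11.2 and 138. Late libraries 1, 2 and 5 lay above all early libraries, while late libraries 3 and 4 fell within the early range. The means were 10.7 ± 7.76 and 54.1 ± 52.3 (SD, n = 5 each), and the log2FC was 2.19 ± 0.89 (SE), with a 95% interval from 0.27 to 4.10. It was not called (limma, BY-adjusted p = 1, unadjusted p = 0.0289). Only 58 reads of IFNG were present in all early libraries together and 267 in all late libraries, and the early values rest on 0 to 22 reads each. Leaving out early library 1, which held 0 IFNG reads, lowered the log2FC to 1.43. That library also had the lowest summed T-cell level (106) and a CD3E value of 2.86.

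CD3E, a subunit of the T-cell receptor complex, ran from 2.86 to 393 in early and from 686 to 1015 in late CCH. All late libraries therefore lay above all early ones for CD3E, unlike for IFNG. The log2 ratio of IFNG to CD3E averaged −3.13 ± 1.54 (SD) in early CCH and −4.48 ± 1.50 in late CCH, and the difference of −1.35 was within the spread between libraries (exact two-sided permutation test, p = 0.19, adjusted p = 0.333 over 7 ratios). In early library 1, with 0 IFNG and 3 CD3E reads, the ratio is set by the added 1 and is no measured ratio, and without that library the difference was −1.05. The smallest p this test can give with 5 against 5 libraries is 0.00794. Whether the number of T cells accounts for the IFNG values was not tested.

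**Figure D2:**
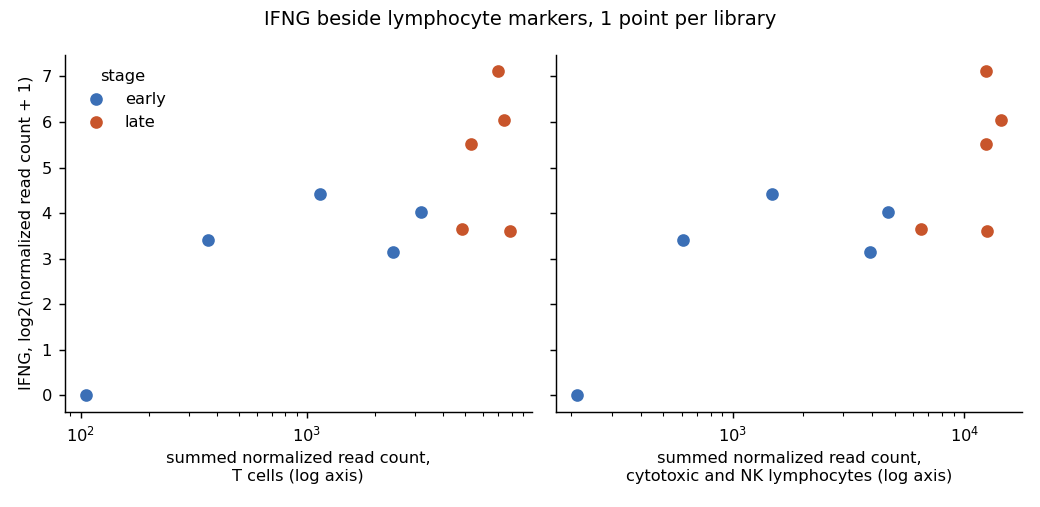
IFNG as log2(normalized read count + 1) against the summed normalized read count (log axis) of T-cell markers in the left panel and of cytotoxic and natural killer lymphocyte markers in the right panel, 1 point per library (blue early, red late). The late libraries sit at T-cell sums of 4828 to 7906, and their IFNG values spread from 11.2 to 138 normalized read counts.

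IFNGR1, the ligand-binding chain of the interferon gamma receptor, had 387, 475, 203, 92.2 and 543 normalized read counts in early CCH. Late values were 64.6, 169, 198, 211 and 99.7. The early libraries alone spanned a 5.89-fold range, and 1 late library lay below all of them. Means were 340 ± 188 and 148 ± 63.5 (SD, n = 5 each). The log2FC of −1.07 ± 0.47 (SE), with an interval from −2.09 to −0.04, was not called by limma (BY-adjusted p = 1, unadjusted p = 0.0429).

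IFNGR2, the signaling partner of IFNGR1, stood at 190.4, 446, 139, 147 and 203 in the early libraries and at 165, 143, 128, 168 and 127 in the late libraries. Early library 2 was far above the others, and the remaining early values were close to the late ones. Means were 225 ± 126 and 146 ± 19.6 (SD, n = 5 each). The log2FC was −0.49 ± 0.28 (limma, BY-adjusted p = 1), and without early library 2 it was −0.21. The log2 ratio of IFNGR1 to IFNGR2 was 0.48 ± 0.81 in early and −0.10 ± 0.78 in late CCH, and the difference of −0.58 was within the spread between libraries (exact permutation test, p = 0.294, adjusted p = 0.411). It was −0.27 without late library 1 and −0.34 without early library 5.

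IFNAR2, the chain of the type I receptor that binds ligand with high affinity and carries JAK1, rose in late CCH and was the member with the lowest p. Its normalized read counts were 17.1, 40.9, 28.9, 39.4 and 23.6 in early CCH and 107, 108, 126, 95.1 and 88.1 in late CCH. All late libraries lay well above all early ones, and the values of a stage were close to each other. Means were 30.0 ± 10.2 and 105 ± 14.4 (SD, n = 5 each), a 3.49-fold ratio, from 166 and 528 reads in all. The log2FC was 1.83 ± 0.26 (SE), with an interval from 1.25 to 2.40 (limma, BY-adjusted p = 0.0194). Leaving out early library 5 or late library 1, 2 or 4 took the adjusted p to between 0.0604 and 0.0707, which ended the call, and the call held in the other 6 such fits. The log2FC stayed between 1.65 and 1.95 in all 10. Among genes tested, the mean of IFNAR2 stood at percentile 21.2 in early and 55.9 in late CCH.

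IFNAR1, the chain that carries TYK2, was measured at 315, 321, 226, 262 and 269 in early and at 809, 433, 432, 416 and 402 in late CCH. All late libraries lay above all early ones, and late library 1 was far above the other 4. Means were 279 ± 39.5 and 498 ± 174 (SD, n = 5 each), and the log2FC was 0.79 ± 0.20 (limma, BY-adjusted p = 0.207), below the fold needed for a call. Without late library 1 it was 0.60.

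The partner chains of the type I receptor were far from equal in level, and the distance between them was smaller in late CCH. On the linear scale, IFNAR1 was 6.52 to 17.4 times IFNAR2 in the early libraries and 3.41 to 7.48 times in the late libraries, with 1 added to each value. The log2 ratio was 3.23 ± 0.57 in early and 2.19 ± 0.43 in late CCH, and 4 of 5 late libraries lay below all early libraries. The difference of −1.04 had an exact permutation p of 0.0159 and an adjusted p of 0.0556, above the threshold of 0.05. With 5 against 5 libraries and 7 ratios, a ratio that passes alone cannot reach an adjusted p below 0.0556. This ratio would not have been alone, since IL10RB to IL10RA had the smallest possible exact p, 0.00794. At that p, IFNAR1 to IFNAR2 would have passed as well, so the test could have called it and did not. Its adjusted p (exact permutation test) was 0.111 with a pseudocount of 5. It ran from 0.0556 to 0.139 with 1 library left out.

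IL10RB, the shared chain, gave 217, 330.3, 217, 297 and 221 normalized read counts in early and 438, 357, 395, 518 and 370.4 in late CCH. The stages did not overlap, although the highest early and the lowest late value were close. Means were 257 ± 53.5 and 416 ± 65.2 (SD, n = 5 each), and the log2FC was 0.70 ± 0.17 (limma, BY-adjusted p = 0.17). Its partner in the interleukin-10 receptor, IL10RA, which is no member of the set, had means of 582 ± 90.2 and 436 ± 140 with a log2FC of −0.46 ± 0.21 (limma, BY-adjusted p = 1). The log2 ratio of IL10RB to IL10RA was −1.19 ± 0.38 in early and −0.03 ± 0.51 in late CCH, and all 5 late libraries lay above all early ones. The difference of 1.16 had an exact permutation p of 0.00794, the smallest the design allows, and an adjusted p of 0.0556. That is the lowest adjusted p a ratio passing alone can have, so missing 0.05 decides nothing about the IL10RB to IL10RA ratio.

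**Figure D3:**
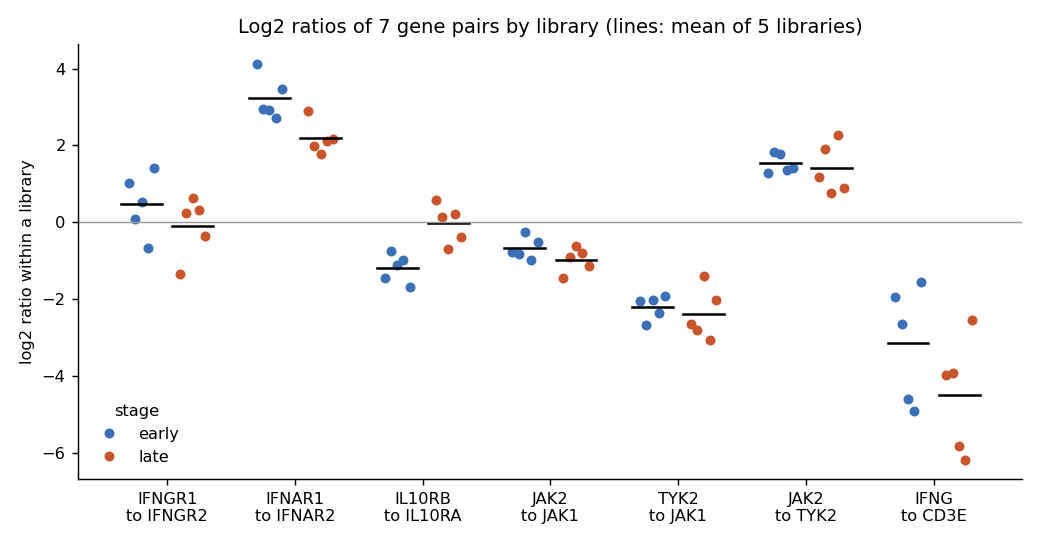
Log2 ratios of 7 gene pairs in each library, early and late, with the mean of 5 libraries as a line. The IL10RB to IL10RA ratio is higher in all late libraries, and the IFNAR1 to IFNAR2 ratio is lower in 4 of 5, while the other pairs overlap.

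For 3 receptor chains the table holds a further row under a LOC symbol with nearly the same reads. LOC478404 equaled IL10RB in all 10 libraries. LOC487737 equaled IFNAR2 in 8 libraries and LOC487739 equaled IFNGR2 in 8, and neither differed from its partner by more than 2 reads. In the newer dog assembly UU_Cfam_GSD_1.0, the identifier of LOC478404 is that of IL10RB and the identifier of LOC487739 is that of IFNGR2. The identifier of LOC487737 was not found there. Reads with several mapping places were split evenly by the authors, and whether each row holds all or an equal part of the reads is not given in the sources used here. The level of these chains may therefore be a part of the total. This also bears on the percentiles and the levels of the ratios above and on the order of levels below. With the reads of both rows added up, the log2FC was 1.84 for IFNAR2 (limma, BY-adjusted p = 0.0131), −0.49 for IFNGR2 and 0.71 for IL10RB.

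IFNAR2, IL10RB, IFNAR1 and IFNGR2 lie next to each other in the newer dog assembly UU_Cfam_GSD_1.0 in this order on chromosome 31. The first 3 had late values that all exceeded the early values, and IFNGR2 did not. SON, which encodes an RNA-splicing protein and lies further along, also had all late values above all early values. Its log2FC was 0.69 ± 0.17 (limma, BY-adjusted p = 0.189). DNAJC28, between IFNGR2 and SON, was low, with means of 8.30 in early and 8.13 in late CCH. Its log2FC was −0.26 ± 0.65 (limma, BY-adjusted p = 1), too imprecise to show a direction. TMEM50B and GART, also between IFNGR2 and SON, had no row under these symbols.

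None of the 3 kinases was called, and the stages overlapped in each of them. JAK1, used by both interferon receptors, was the most abundant member in both stages, with 522, 661, 495, 744 and 575 normalized read counts in early and 766, 565, 617, 830.3 and 692 in late CCH. The ranges overlapped, and the log2FC was 0.21 ± 0.16 with an interval from −0.13 to 0.56 (limma, BY-adjusted p = 1).

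JAK2, the kinase of IFNGR2, read 307, 374, 419.7, 379 and 405 in early and 278, 303, 401, 481 and 318 in late CCH. Its log2FC was −0.10 ± 0.17, with an interval from −0.47 to 0.27. With 1 library left out it ran from −0.22 (without late library 4) to −0.022 (without late library 1). TYK2, the kinase of IFNAR1 and IL10RB, read 126, 104, 121, 146 and 152 in early and 122, 79.9, 233, 99.2 and 171 in late CCH, and its late values were the more scattered. Its log2FC of 0.03 ± 0.27, with an interval from −0.55 to 0.61, had no fixed direction, since it was −0.18 without late library 3. Differences in the kinase ratios were within the spread between libraries, with exact permutation p of 0.151 for JAK2 to JAK1, 0.587 for TYK2 to JAK1 and 0.651 for JAK2 to TYK2. With 1 library left out, the differences ran from −0.41 to −0.20 for JAK2 to JAK1, lowest in size without late library 1, and from −0.43 (without late library 3) to −0.019 (without late library 4) for TYK2 to JAK1.

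**Figure D4:**
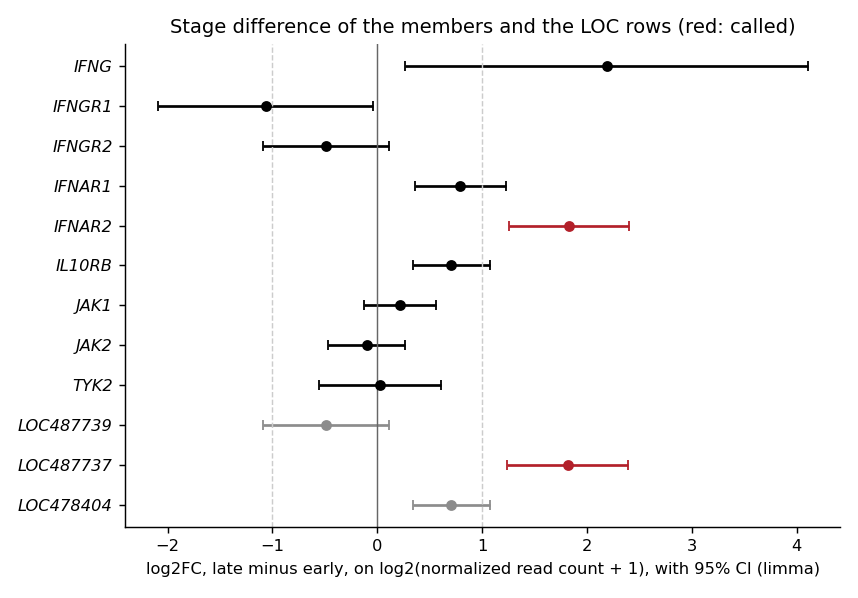
Log2FC (late minus early) of the 9 members and the 3 LOC rows with 95% intervals from limma, called rows in red and dashed lines at a log2FC of 1 in either direction. IFNAR2 is the only member past both thresholds, together with its near-identical row LOC487737, and the intervals of the 3 kinases and IFNGR2 include 0.

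The order of mean levels in early CCH was JAK1, JAK2, IFNGR1, IFNAR1, IL10RB, IFNGR2, TYK2, IFNAR2 and IFNG. Only JAK1 and JAK2, and TYK2 and IFNAR2, had ranges that did not overlap with the next gene. In late CCH the order was JAK1, IFNAR1, IL10RB, JAK2, IFNGR1, IFNGR2, TYK2, IFNAR2 and IFNG, and only JAK2 and IFNGR1 did not overlap. IFNGR1 moved from the third to the fifth place and IFNAR1 from the fourth to the second. These orders use the named rows alone, and IL10RB, IFNGR2 and IFNAR2 may hold only a part of their reads. IL10RB and its LOC row had late means of 416 each, so their sum would exceed JAK1 (694) in late CCH.

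The genes with the profile nearest to a member were found from the root mean square difference of centered log2 values over the 10 libraries. Nearest to IFNAR2 were NEIL1 (0.24), RARRES2 (0.24), TBC1D1 (0.25), DGKZ (0.30) and TMCC2 (0.33), the first 4 of them also called. They were picked for matching a called gene in the same 10 libraries, so their calls add no support. IFNG had no neighbor that close, but the distance is not scaled, and IFNG varied widely between libraries on few reads. Its nearest genes were PGBD5 (0.79), GIMAP4 (0.80), SOCS1 (0.82), SBK1 (0.88) and SIDT1 (0.89). For IFNGR1 the nearest was SPESP1 (0.39), followed by OPN3 (0.42).

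Other genes of the pathway were grouped by role into 7 lists. Of 115 genes, 99 were in the table and 85 were tested. In late CCH, limma called 4 of these higher and 1 lower, beside 1.06% and 1.11% of all genes tested. At an unadjusted limma p of at most 0.05, 35 were higher and 4 lower, beside 15.6% and 15.3%. The median log2FC was 0.50, beside −0.004 over all genes tested. The same shares of all genes apply to the counts of each list below. The 4 higher calls became 7 without early library 3, 2 without early library 4, 1 without late library 3 and 0 without early library 1 or 5 or late library 1, 2, 4 or 5. The single lower call was also lost without early library 1, 3 or 5 or late library 1, 2, 4 or 5.

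Among the ligands, only IL10 was tested, with means of 241 ± 125 and 134 ± 92.9 (SD, n = 5 each) and a log2FC of −0.92 (limma, BY-adjusted p = 1). The rows of IFNE, IFNK and the type III ligand IL29L held 1, 1 and 9 reads in the early libraries together and 4, 0 and 5 in the late libraries, so no difference could be detected at this depth. Only 4 of the 11 listed ligands had a row. IFNB1, IFNA3, IFNA7, IFNL1, IFNL3, IL22 and IL26 had none under these symbols, so nothing is known of their levels.

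Of the other receptor chains with JAK3, 4 were tested and 1 was called. JAK3, which pairs with the common gamma chain of lymphocyte cytokine receptors, rose from 87.4 ± 21.0 to 224 ± 46.4 (limma, log2FC 1.36 ± 0.21, BY-adjusted p = 0.0251), and its late libraries all lay above the early ones.

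None of 7 STAT and IRF9 genes was called by limma, edgeR or DESeq2, while 3 were higher at an unadjusted limma p of at most 0.05. STAT4, which acts in the induction of IFNG, had a log2FC of 1.55 (limma, BY-adjusted p = 0.57).

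Of 19 negative regulators, limma and edgeR each called 1 lower and 0 higher, DESeq2 called 2 lower and 0 higher, and 4 were higher and 3 lower at an unadjusted limma p of at most 0.05. SH2B3, an adaptor that restrains JAK2, fell from 327 ± 51.5 to 127 ± 43.1 (limma, log2FC −1.40 ± 0.22, BY-adjusted p = 0.0288). SOCS2 had a log2FC of −1.68 (limma, BY-adjusted p = 0.133), and SOCS1, an inhibitor that interferons induce, had 2.23 (limma, BY-adjusted p = 0.492).

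The list of 19 tested genes induced by interferon gamma had a median log2FC of 1.21. All late libraries exceeded all early libraries in 7 of them, beside 5.91% of all genes tested. At an unadjusted limma p of at most 0.05, 14 were higher, beside 15.6%, and 1 was called higher, beside 1.06%. With BH adjustment 10 of them were called, beside 5.53% of all genes, with DESeq2 8 and with edgeR 0. Of all 12397 genes, DESeq2 called 480 and edgeR 81 higher. CD274, which encodes PD-L1, rose from 66.4 ± 46.4 to 272 ± 66.8 (SD, n = 5 each), with a log2FC of 2.23 ± 0.38 (limma, BY-adjusted p = 0.0419). IDO1, a tryptophan-degrading enzyme, had the highest log2FC of the list, 4.21 (limma, BY-adjusted p = 0.0526), and CALHM6 the lowest, −0.86 (limma, BY-adjusted p = 1).

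In the list of type I interferon induced genes, 25 were tested and the median log2FC was 0.44. None was called by limma or edgeR, 1 was called by DESeq2, and 6 were higher at an unadjusted limma p of at most 0.05. BST2, which tethers budding virus to the cell, had a log2FC of 2.47 (limma, BY-adjusted p = 0.186), and all its late values lay above the early values. Values for OASL and ISG15 were 1.67 and 1.65 (limma, BY-adjusted p = 1).

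Of 10 tested inducers of IFNG, 2 were called higher, beside 1.06% of all genes tested. In 4 of them all late libraries exceeded all early ones, beside 5.91%. EOMES, a transcription factor of cytotoxic lymphocytes, rose from 79.4 ± 64.2 to 612 ± 141 (limma, log2FC 3.42 ± 0.56, BY-adjusted p = 0.0331). IL21, a cytokine of helper T cells, rose from 5.27 ± 4.49 to 103 ± 74.4 (limma, log2FC 4.13 ± 0.72, BY-adjusted p = 0.0426). Both are lymphocyte genes, and the summed T-cell level was higher in all late libraries than in any early library. Its part in these results was not tested.

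**Figure D5:**
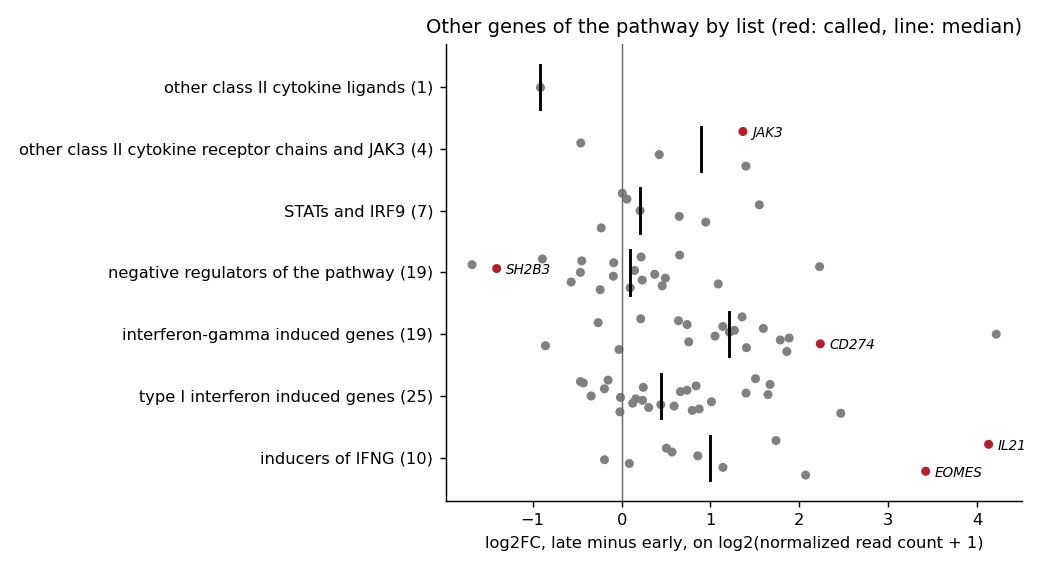
Log2FC (late minus early) of the tested genes of each pathway list, 1 point per gene, with the list median and the called genes marked. The interferon-gamma induced genes have the highest median (1.21). The negative regulators have a median of 0.10 and run from −1.68 (SOCS2) to 2.23 (SOCS1).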

How the data were processed

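The deposited table holds, per the file headers and the study's methods, normalized read counts (a signal, not raw counts) that the authors made by trimming with Cutadapt, aligning with STAR to CanFam3.1, counting with featureCounts in 2 rounds, the second on genes extended downstream by 2 kilobases, and dividing by a DESeq2 size factor per library. Versions are not given in the sources used here. Of 21 value columns, 11 match no sample and were not used. Column names show stage but not sample, so libraries are numbered only to name them. Whole reads were recovered from 100% of values above 0 (tolerance 0.0001). No pair of same-stage libraries agreed within sampling noise, so none was counted as a duplicate.

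Stages were compared with limma 3.58.1 (trend) in R 4.3.3 on log2(value + 1), over all 10 libraries without covariates, with BY adjustment, and ratios with an exact permutation test over 252 assignments and Benjamini-Hochberg (BH) adjustment over 7 ratios. The scripts were tested on simulated data. edgeR 4.0.16 called 177 genes and DESeq2 1.42.0 called 810 on the recovered reads. Alternatives were other pseudocounts, filters, scalings, adjustments, library weights, and each library left out.

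The members and lists were chosen with earlier results of these data known. Genes were named by rule: all members, per pathway list the 3 highest and the lowest log2FC and up to 3 called genes, per cell-type list the highest and the lowest, and the 5 nearest profiles. Not all of them are printed. Names and neighbors come from RefSeq on UU_Cfam_GSD_1.0, where all 9 members matched.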

Additional observations from a re-analysis of the deposited data

Results flagged for a closer look

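Of 32 groups of 5 libraries examined with Dixon's gap test, 2 held a library that stood apart, where chance gives about 1.6. In early CCH, IFNGR2 was highest in library 2, and the gap to the next library was 0.792 of the whole range, above the critical value of that test. In late CCH, IFNAR1 was highest in library 1, with a gap of 0.924 of the range, also above it. Neither gene was called with or without the library that stood apart. Leaving out late library 1 did, however, end the call of IFNAR2 (limma, BY-adjusted p = 0.0604).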

How the results depend on the processing

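With all 10 libraries, IFNAR2 was called in every alternative run, and no other member was. Numbers of calls over all genes moved more. BH adjustment gave 685 genes called higher and 436 called lower, with 16 and 2 pathway genes. edgeR called 81 genes and 2 pathway genes higher, DESeq2 called 480 genes higher and 330 lower with 13 and 2 pathway genes, and weights per library gave 217 higher. Leaving out each library in turn gave 0 to 1 members higher, 18 to 144 genes higher and 29 to 153 lower, and 0 to 7 pathway genes higher and 0 to 1 lower. Scaling by column totals raised the share of higher calls from 48.7% to 64%. The TYK2 log2FC was −0.089 with weights and ran from −0.18 to 0.20 with 1 library left out, being negative without early library 2 (−0.048) or late library 3 (−0.18) or 5 (−0.068). The JAK2 to TYK2 difference ran from −0.35 to 0.026 and turned positive without late library 3. No ratio passed in any alternative, but at an exact p of 0.00794 adjusted over 7 ratios the smallest value for a ratio that passes alone is 0.0556. No paired analysis was possible because library columns hold no replicate number. Depth limits IFNG most, and p-values measure the spread between dogs of a stage that also differ in extraction batch.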

Other observations

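Markers of other cell types of skin were summed in each library in normalized read counts, and their part in the member values was not tested. Cytotoxic and natural killer lymphocyte markers summed to 211 to 4673 in early and 6476 to 14436 in late CCH, with NCR1 at 0 in all early libraries. B-cell markers summed to 483 to 732 and 637 to 3220, and macrophage markers to 1044 to 9080 and 5383 to 10482. Much of the early B-cell sum was CD22, with an early mean of 480 and a log2FC of −0.28. Of 7 B-cell markers tested, 6 were higher at an unadjusted limma p of at most 0.05, beside 15.6% of all genes. Their list had a median log2FC of 2.93, and 0 were called. The ranges were 892 to 15952 and 661 to 8074 for keratinocyte, 7742 to 60728 and 10713 to 35886 for fibroblast, and 520 to 875 and 586 to 1256 for endothelial markers. Higher at an unadjusted limma p of at most 0.05 were also 13 of 13 T-cell, 8 of 11 cytotoxic, 5 of 9 macrophage, 3 of 7 endothelial and 0 of 7 fibroblast markers. Lower were 5 of 8 Langerhans and dendritic cell and 1 of 7 keratinocyte markers, beside 15.3%. Calls by limma (BY) were CD6 of 13 T-cell markers and KLRK1 of 11 cytotoxic markers, both higher, beside 1.06% of all genes. FLT3 and FCER1A, of 8 Langerhans and dendritic cell markers, were called lower, beside 1.11%.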
